A study of Mus musculus with 8 samples.

Results

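Long noncoding RNA (lncRNA) genes were followed through the withdrawal of growth factors from cultured mouse hippocampal progenitors. The set holds every autosomal gene whose type in the deposited gene table reads lincRNA or lncRNA, which gave 103 of 9140 genes. Of these, 86 are typed as lincRNA, intergenic by the name of the type, and 17 as lncRNAs of a bidirectional promoter. By the same types, 5 genes on chromosome X and 1 on chromosome Y were left out by the rule, and 112 antisense and 120 processed-transcript genes of the table were not counted as members.

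The cells came from dentate gyrus microdissected from mouse embryos at embryonic day 18 as the labels have it (the methods text has another embryonic day), from matings of C57BL/6J females with Kmt2d+/βgeo males. One label is Kmt2d+/βgeo, with 1 copy of Kmt2d carrying the gene-trap allele Mll2Gt(RRt024)Byg, and the other is wild type, whose strain label is C57BL/6J and which the protocol describes as littermates. Both were grown with EGF and FGF2 and collected undifferentiated (day 0) and 2, 4 and 8 days after the growth factors were taken away, with 1 library per label and day. A culture, an embryo or a capture therefore cannot be told apart from a label or a day, and libraries are named by their labels.

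LncRNAs are transcripts that are long, often spliced and polyadenylated, and not known to encode a protein. Some act where they are made, by the transcription of a neighbouring gene or the recruitment of chromatin proteins, some act as RNAs elsewhere in the cell, and some serve mainly as precursors from which microRNAs or small nucleolar RNAs (snoRNAs) are cut. In neural progenitors several are known for lying beside transcription factor genes of the nervous system or for carrying microRNAs that accompany the exit from division.

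All 8 libraries together held 30408 cells, from 2534 to 4900 per library, with median total UMIs (unique molecular identifiers, each marking 1 captured molecule) from 7926 in the Kmt2d+/βgeo day 8 library to 23219 in the Kmt2d+/βgeo day 0 library. Kmt2d itself had a level, as a mean normalised count per cell, of 0.193, 0.171, 0.295 and 0.290 on days 0, 2, 4 and 8 in Kmt2d+/βgeo and of 0.157, 0.197, 0.237 and 0.241 in wild type, and 3′ tags need not tell the trapped copy from the intact one. No 2 libraries shared more than 10 cell barcodes. The 2 day 4 libraries were alike beyond the other days, with an SD of the log2 label ratio over all genes compared of 0.109, against 0.342 on day 0, 0.381 on day 2 and 0.492 on day 8, so day 4 values are given but are read neither as a label difference nor as 2 separate cultures that behaved alike. The astrocyte markers of the table (5 of 8 listed genes) summed to 8.20 to 16.2 normalised counts on day 0 and to 101 to 252 later. Apoe made up most of that sum (5.88 to 14.1 on day 0, 94.7 to 244 later), and the 4 markers besides it summed to 2.11 to 2.31 on day 0 and to 4.63 to 8.61 later. Not each of them was higher later, as Aldh1l1 stood at 0.516 on day 8 and 0.648 on day 0 in Kmt2d+/βgeo. The dividing-cell markers (4 of 8) fell from 7.52 to 8.56 on day 0 to 0.973 to 1.25 later. The neuron markers (2 of 8, Map2 and Rbfox3) summed to 2.87 to 4.17 in all 8 libraries. The neural progenitor markers (6 of 9) summed to 70.1 to 143. Map2 made up most of the neuron sum, at 2.85 to 4.00. Rbfox3 rose from 0.00536 and 0.0174 on day 0 to 0.170 and 0.176 on day 4 (Kmt2d+/βgeo, wild type). Vim and Fabp7 made up most of the progenitor sum. Sox9 rose from 1.61 and 2.72 on day 0 to 7.16 and 6.91 on day 8. Hopx rose from 0.435 and 0.226 to 6.16 and 1.82. Vim, Pax6 and Slc1a3 were also higher on day 8 than on day 0 in both labels, and Fabp7 was lower. Of the oligodendrocyte list, 1 of 7 genes was present, Olig2, at 5.53 and 8.09 on day 0 and at 1.48 and 0.911 on day 8 (Kmt2d+/βgeo, wild type). None of these markers was at 0. Microglial and vascular markers were not analysed here. Fewer cells of a type and less RNA per cell cannot be told apart in means over a library.

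Among the members, 11 contain microRNA genes on their own strand, 21 microRNA genes in all. The sequences of 16 of these are shown, the miR-9, let-7, miR-344, miR-129, miR-670 and miR-101a genes, because they tell which small RNA these hosts carry. Mir3093 in Gm3764, Mir155 in Mir155hg, Mir6516 in Snhg20, Mir1839 in 2900076A07Rik and Mir6241 in Gm4675 are named only. The 3 mouse genes for miR-9, a microRNA of neural progenitors, each lie in a member. Their hairpins differ outside the mature arms, which are in capitals.
Mir9-1 (in an intron of Gm3764, chr3:88215598-88215686, plus strand): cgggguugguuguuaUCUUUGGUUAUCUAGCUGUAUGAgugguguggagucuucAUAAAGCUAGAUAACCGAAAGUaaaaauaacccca
Mir9-2 (in an exon of C130071C03Rik, chr13:83738814-83738885, plus strand): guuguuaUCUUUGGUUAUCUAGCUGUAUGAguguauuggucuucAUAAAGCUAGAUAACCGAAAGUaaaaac
Mir9-3 (in an intron of Mir9-3hg, chr7:79505264-79505353, plus strand): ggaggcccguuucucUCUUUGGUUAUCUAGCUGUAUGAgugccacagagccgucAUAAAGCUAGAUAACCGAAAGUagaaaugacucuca

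Mature sequences of the same 16 genes follow, with the seed (bases 2 to 8, which pair with target RNAs) in capitals. The first pair is cut from each of the 3 miR-9 hairpins.
mmu-miR-9-5p: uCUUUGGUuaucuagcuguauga
mmu-miR-9-3p: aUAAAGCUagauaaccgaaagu
The 3 let-7 microRNAs of 6720427I07Rik share the seed GAGGUAG.
mmu-let-7a-5p: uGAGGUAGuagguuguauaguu
mmu-let-7f-5p: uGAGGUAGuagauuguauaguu
mmu-let-7d-5p: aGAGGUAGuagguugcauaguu
A230057D06Rik spans 7 genes of the miR-344 family, which have 4 different seeds among their 3p arms.
mmu-miR-344-3p: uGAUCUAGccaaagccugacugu
mmu-miR-344c-3p: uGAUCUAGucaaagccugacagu
mmu-miR-344d-3p: gAUAUAACcacugccagacuga
mmu-miR-344e-3p: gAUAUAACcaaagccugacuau
mmu-miR-344h-3p: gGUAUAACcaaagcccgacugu
mmu-miR-344b-3p: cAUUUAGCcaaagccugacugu
Mir670hg carries the next pair and E130102H24Rik the last.
mmu-miR-129-5p: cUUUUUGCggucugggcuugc
mmu-miR-670-5p: aUCCCUGAguguauguggugaa
mmu-miR-101a-3p: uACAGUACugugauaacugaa

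As a group the 103 members were low. Levels are mean normalised counts per cell (a cell sums to 8707.14), from 3′ tags and not scaled by length. The median member had a mean level over the 8 libraries of 0.0588, against 0.300 for all genes and 0.318 for protein-coding genes, and 10 of 103 members lay above the median of all genes. Every member had at least 20 UMIs in every library. The authors had removed genes seen in fewer than 20 cells. Whether they did so library by library is not stated, and the part of that filter in this floor was not tested. With this floor, no lncRNA gene missing from a day or a label is among the members. A level of 0.1 was reached in at least 1 library by 49 members, in all 8 libraries by 17, and in no library by 54. All members together took from 0.170% (Kmt2d+/βgeo day 0) to 0.231% (wild type day 2) of the UMIs on the table's genes.

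A few genes held a large share of that signal. Pantr1 and Gm3764 held 29.8% of the UMIs on the 103 members, and with Oip5os1, 4632427E13Rik and Snhg20 the share was 48.0%. These are not shares of all lncRNAs of the cells. Of 25 lncRNAs on a fixed list, 5 were members and 4 stood in the deposited table under another gene type. In Kmt2d+/βgeo on day 0, the median UMIs per cell were 11230 on the table's genes and 23219 in total. The share of the first pair differed by day, at 42.3% and 35.6% on day 0 (Kmt2d+/βgeo, wild type), 31.9% and 34.5% on day 2, 20.3% and 20.2% on day 4, and 9.72% and 10.5% on day 8. The mean level over the 8 libraries was 2.25 for Pantr1, 2.08 for Gm3764, 1.27 for Oip5os1, 1.10 for 4632427E13Rik and 0.771 for Snhg20. Scaled by exonic length, the order differed. Epb41l4aos, whose exons span 430 bases, led with 1.05 normalised counts per kb, followed by Pantr1 with 0.505, Gm39469 with 0.433, 2310010J17Rik with 0.422, Gm5914 with 0.392 and Gm3764 with 0.357. As 3′ tags give about 1 tag per molecule whatever its length, the per-length order is given beside the other and not in its place.

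**Figure D1:**
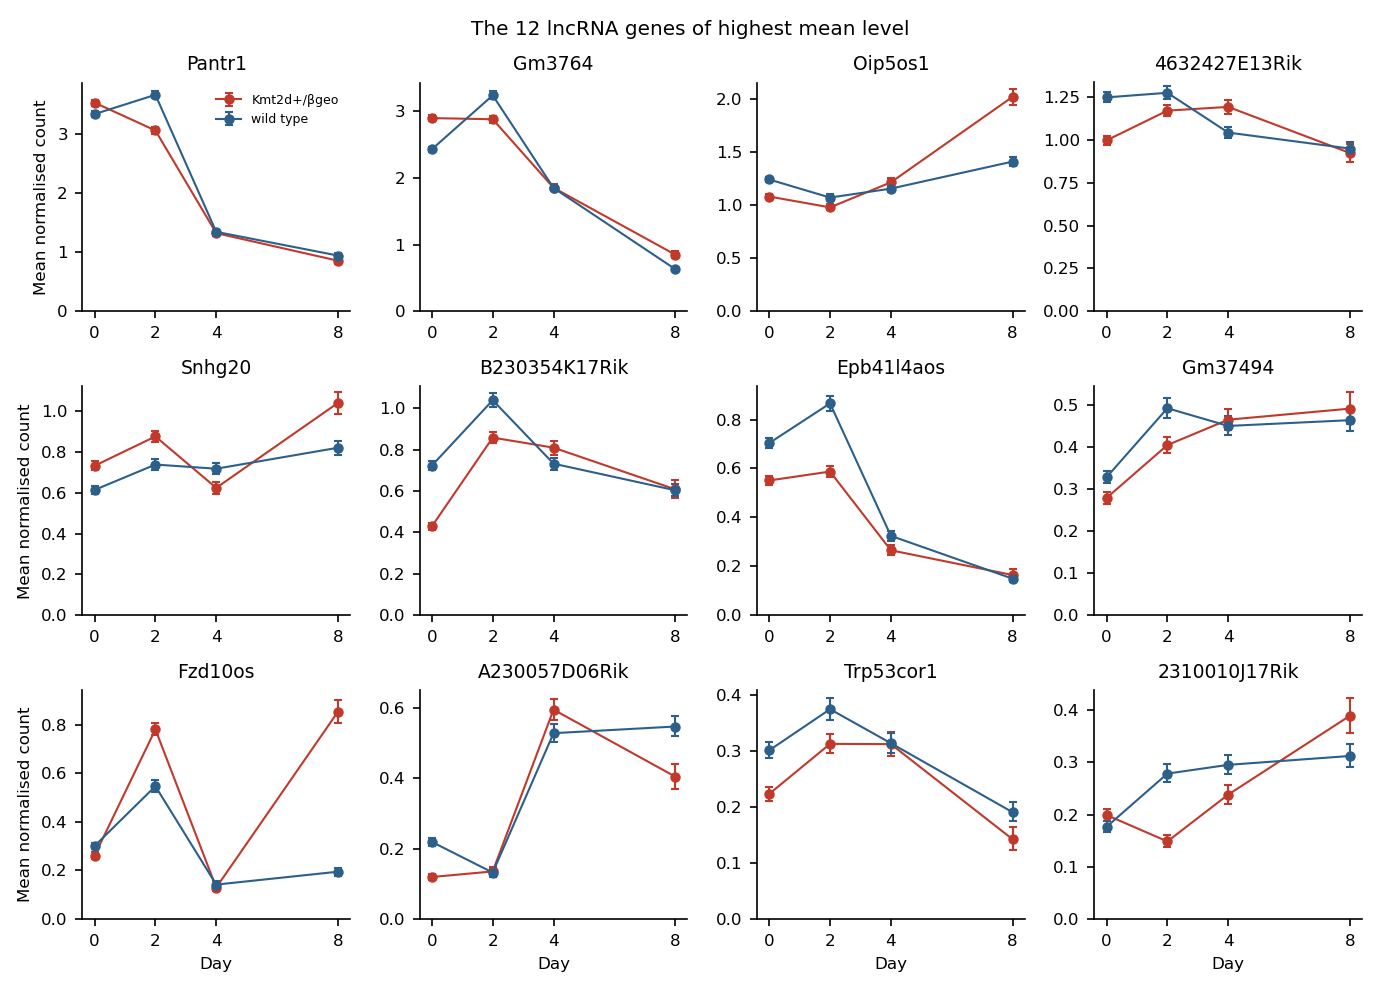
Mean normalised count (y axis, from 0) by day (x axis) for the 12 lncRNA genes of highest mean level, with Kmt2d+/βgeo in red and wild type in blue. Each point is 1 library and the bars are 95% Poisson intervals of the summed UMIs, which cover counting error only. Pantr1, Gm3764 and Epb41l4aos are lowest at day 8 in both labels.

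Pantr1 (ENSMUSG00000060424, chr1:42590782-42694842, minus strand) is transcribed away from Pou3f3, which encodes a POU-domain transcription factor of the developing brain. In the library labelled Kmt2d+/βgeo its level was 3.52 on day 0, 3.06 on day 2, 1.32 on day 4 and 0.855 on day 8. In the library labelled wild type it was 3.33, 3.66, 1.34 and 0.942 on the same days. Both labels were thus high on days 0 and 2 and low on days 4 and 8, with the 2 alike day 4 libraries among the low ones. The share of all genes with such a split of days was not taken. Day 8 over day 0, the log2 ratio of levels was -2.04 in Kmt2d+/βgeo (95% interval of the ratio of summed UMIs -2.14 to -1.97) and -1.82 in wild type (-1.84 to -1.71). Pou3f3, whose start is 83 bases away in the deposited gene table, had levels between 0.290 and 0.455 in the 8 libraries and ratios of -0.26 and 0.19, under the 2-fold threshold.

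The 3 miR-9 host genes followed different courses. Gm3764 (chr3:88206813-88229959, plus strand), which contains Mir9-1, had levels of 2.90, 2.88, 1.85 and 0.850 on days 0, 2, 4 and 8 in Kmt2d+/βgeo. In wild type they were 2.43, 3.24, 1.85 and 0.632. It fell in both labels, with a log2 ratio of day 8 over day 0 of -1.77 (-1.79 to -1.62) and -1.94 (-1.99 to -1.85). C130071C03Rik (chr13:83721381-83884194, plus strand), which contains Mir9-2, went the other way. Its levels were 0.0866, 0.101, 0.150 and 0.218 in Kmt2d+/βgeo and 0.0715, 0.106, 0.171 and 0.128 in wild type. Its day 8 ratio was 1.33 (1.18 to 1.62) in Kmt2d+/βgeo, past 2-fold, and 0.84 (0.68 to 1.11) in wild type, under it. Mir9-3hg (chr7:79500026-79534403, plus strand) was highest on day 4 in both labels. It stood at 0.0676, 0.0542, 0.175 and 0.0639 in Kmt2d+/βgeo, and at 0.0665, 0.0831, 0.160 and 0.0871 in wild type. Day 4 over day 0, its ratio was 1.37 and 1.27. Summed levels of a host are not levels of its microRNA, which 3′ tags of polyadenylated RNA do not measure.

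Other microRNA hosts had their own days. Mir670hg, the host of miR-129-2 and miR-670, rose on day 2 and was back at its first level afterwards. Its levels were 0.0452, 0.155, 0.0515 and 0.0506 in Kmt2d+/βgeo and 0.0509, 0.208, 0.0573 and 0.0465 in wild type, and its day 2 ratio was 1.78 (1.63 to 2.06) and 2.03 (1.99 to 2.39). E130102H24Rik, the host of miR-101a, had levels of 0.0266, 0.0725, 0.0629 and 0.0839 in Kmt2d+/βgeo, where day 8 was highest. In wild type they were 0.0281, 0.116, 0.0803 and 0.0909, with day 2 highest. Its day 2 ratio was 2.04 (1.95 to 2.50) in wild type, and in Kmt2d+/βgeo the levels were under 0.1, so it was not compared. A230057D06Rik, which spans the miR-344 genes, was low on days 0 and 2, from 0.119 to 0.219, and higher on days 4 and 8, from 0.404 to 0.594. Its ratio of day 8 over day 0 was 1.76 and 1.32. The let-7 host 6720427I07Rik stayed between 0.111 and 0.165 in the 8 libraries and passed 2-fold in no comparison. Mir155hg, the host of miR-155, was between 0.0153 and 0.0396 and was compared on no day.

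**Figure D2:**
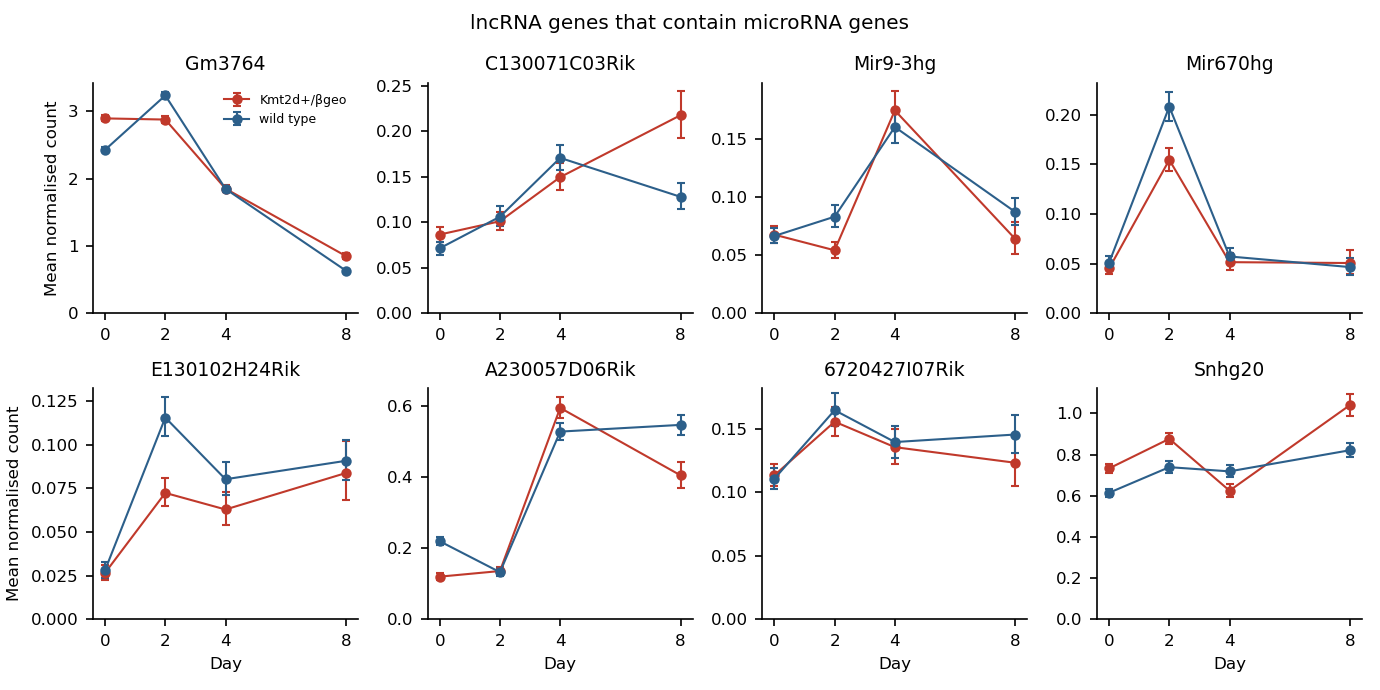
Mean normalised count (y axis, from 0, a scale of its own in each panel) by day (x axis) for 8 lncRNA genes that contain microRNA genes, Kmt2d+/βgeo in red and wild type in blue. Points are single libraries with 95% Poisson intervals of counting error. Gm3764 is lowest on day 8, Mir9-3hg is highest on day 4 and Mir670hg on day 2 in both labels.

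The snoRNA host list had 2 members. Snhg20 (chr11:117076008-117078955, plus strand) ranged from 0.614 to 1.04 and passed 2-fold in no comparison. Epb41l4aos (chr18:33794892-33795986, plus strand) had levels of 0.551, 0.587, 0.265 and 0.164 in Kmt2d+/βgeo. In wild type they were 0.704, 0.866, 0.324 and 0.149, so that it was lower on days 4 and 8 than on days 0 and 2 in each label. It fell with a ratio of day 8 over day 0 of -1.75 (-2.02 to -1.61) and -2.24 (-2.32 to -2.02). Of the list of lncRNAs tied to growth or p53, 4 were members, 3 were compared between day 0 and day 8, and 0 passed 2-fold in either label, where 32.9% and 27.3% of all genes did in either direction. Oip5os1, known for its conserved site for miR-7, stood at 1.08 and 1.24 on day 0 and at 2.02 and 1.41 on day 8, and was highest on day 8 in both labels. Its day 8 ratio was 0.90 and 0.18. Trp53cor1, the p53-induced neighbour of Cdkn1a, stood at 0.224, 0.313, 0.313 and 0.143 in Kmt2d+/βgeo and at 0.302, 0.375, 0.314 and 0.191 in wild type, lowest on day 8 in both, with days 2 and 4 equal at these digits in Kmt2d+/βgeo. Cdkn1a, which encodes a cell-cycle inhibitor, was lowest on day 2, at 1.05 and 0.819. Pvt1, a lncRNA beside the Myc locus, was at 0.124 and 0.101 on day 0 and at 0.0522 and 0.0334 on day 2, a fall with a ratio of -1.24 (-1.43 to -0.99) and -1.59 (-1.97 to -1.39). On day 8 it stood at 0.0975 and 0.0773. Lncpint was between 0.0167 and 0.0586 and was not compared. The lists of imprinted and of nuclear-retained lncRNAs had 0 members, and their genes were not analysed here.

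At a minimum of 0.1, more lncRNA genes rose than fell after the growth factors were removed. On day 8 in Kmt2d+/βgeo, 40 members were compared with day 0, of which 20 rose and 4 fell, where 19% and 13.9% of all genes compared did so. In wild type, 12 of 35 rose and 6 fell, beside 16.3% and 10.9% of all genes. On day 2, 10 of 33 rose and 1 fell in Kmt2d+/βgeo (10.7% and 6.74% of all genes), and 13 of 37 rose and 2 fell in wild type (8.08% and 5.56%). On day 4, 14 of 37 rose and 6 fell in Kmt2d+/βgeo (14.8% and 6.61%), and 11 of 34 rose and 5 fell in wild type (11.9% and 6.60%). The 3 comparisons of a label share its day 0 library. As a low gene is compared only where 1 of its libraries reaches 0.1, the ratio was also taken over all 103 members with no minimum. The median log2 ratio of day 8 over day 0 was then 1.14 in Kmt2d+/βgeo and 0.82 in wild type, against 0.16 and 0.10 over all 9140 genes. Members still had at least 20 UMIs in every library, a floor that is a higher level where a library is shallower. For Gm26660, 20 UMIs were a level of 0.0171 in Kmt2d+/βgeo on day 8. For Gm41492, 21 UMIs were 0.00389 in wild type on day 0. A low gene that fell may thus be absent where a low gene that rose was kept. The part of this floor in the time courses was not tested. The counts depended on the minimum and the scale. With a minimum of 0.5, 3 of 10 members rose and 3 fell by day 8 in Kmt2d+/βgeo, with a median of 0.50, and 2 of 9 rose and 3 fell in wild type, with a median of -0.26, where 35.4% and 29.3% of all genes went past 2-fold in either direction. As differences of mean log2 values, 0 rose and 2 fell in each label, with medians of 0.05 and 0.06. Past the threshold on that scale were 3.52% and 2.91% of all genes. A gene under a level of 1 in both libraries cannot pass the threshold there. As 6 of 103 members reached 1 in any library, the count of 0 was nearly fixed in advance and tells nothing of the others. Astrocyte markers, Apoe most of all, and dividing-cell markers moved over the same days, as did Olig2, Fabp7, Sox9, Hopx and Rbfox3 (described above). The part of these markers in the counts was not tested.

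Few members were highest on day 0. Among the 49 members that reached 0.1 in any library, 26 were highest on day 8 in Kmt2d+/βgeo and 16 in wild type, 10 and 22 on day 2, 8 and 6 on day 4, and 5 and 5 on day 0. Over all 8079 genes that reached 0.1, 25.8% and 31.7% were highest on day 0, against 10.2% of these members in either label. On day 2 it was 18.0% and 18.3% of all genes, against 20.4% and 44.9% of the members, and on day 4 it was 24.3% and 18.6%, against 16.3% and 12.2%. On day 8 it was 31.8% and 31.4% of all genes, against 53.1% and 32.7% of the members, so that wild type was near the background there. Day 0 was the highest day of both labels for 2 members, 5430416N02Rik and Pvt1 (22.4% of all genes in the same count). Day 2 was so for 9 members, Mir670hg and E330013P04Rik among them (11.5%), and day 8 for 15, Oip5os1 and Snhg20 among them (22.1%). Day 4 was so for 3, Mir9-3hg, Gm5914 and Gm30373 (11.7%), in the pair of libraries that were alike.

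Of the 31 members compared between day 8 and day 0 in both labels, 9 rose in both, 4 fell in both and 0 went past 2-fold in opposite directions. Over the 7572 genes compared in both labels, 13.2% rose in both, 8.02% fell in both and 0 went opposite ways. C530044C16Rik (chr6:50776115-50815033, plus strand) rose most by the smaller of its ratios. Its levels were 0.0344, 0.251, 0.121 and 0.768 in Kmt2d+/βgeo and 0.0319, 0.139, 0.106 and 0.332 in wild type, so that day 8 was highest and day 0 lowest in each label. The day 8 ratio was 4.48 (4.31 to 4.77), or 22.4-fold, and 3.38 (3.12 to 3.57), or 10.4-fold. Gm32834 (chr13:51378136-51418686, minus strand), which overlaps S1pr3 on the opposite strand in GENCODE M21, stood at 0.0403, 0.0701, 0.206 and 0.359 in Kmt2d+/βgeo and at 0.0318, 0.0681, 0.261 and 0.877 in wild type. Its level was higher on each later day in both labels. Its day 8 ratio was 3.16 (3.12 to 3.59) and 4.79 (4.60 to 5.03). Gm39469 rose from 0.0622 and 0.0595 on day 0 to 0.619 and 0.404 on day 8, with ratios of 3.31 and 2.77. 4930570G19Rik rose with ratios of 1.74 and 1.87 and Gm46123 with 2.19 and 1.54, the latter highest on day 4 in Kmt2d+/βgeo (0.187) and on day 2 in wild type (0.157). The members that fell in both labels were Pantr1, Gm3764, Epb41l4aos and 5430416N02Rik, the last with ratios of -1.06 and -1.11 from 0.188 and 0.130 on day 0.

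**Figure D3:**
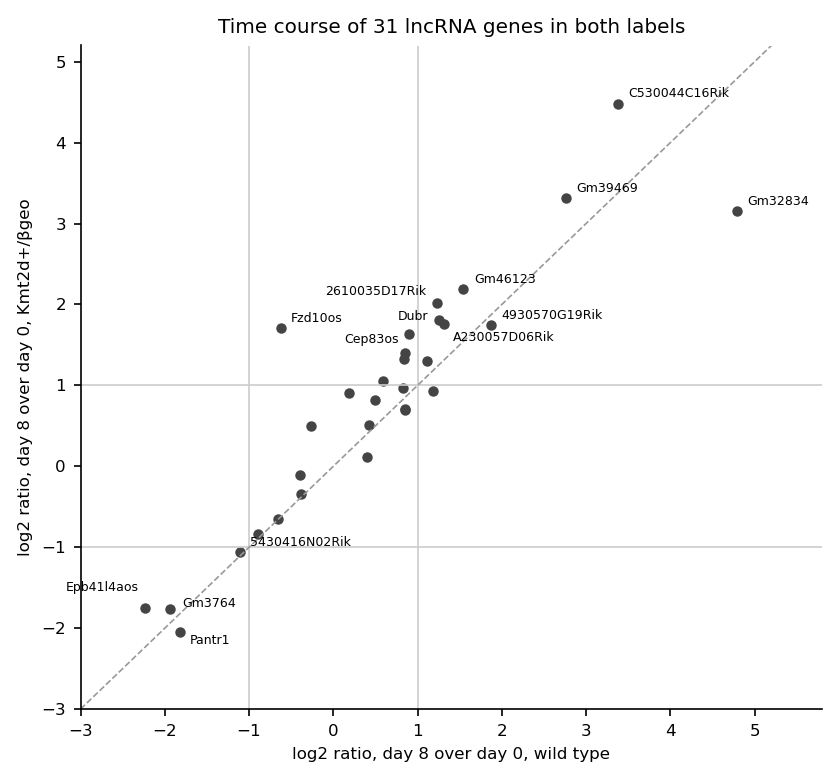
Log2 ratio of mean levels, day 8 over day 0, in wild type (x axis) and Kmt2d+/βgeo (y axis) for the 31 lncRNA genes compared in both labels. Each point is 1 gene, grey lines mark the 2-fold threshold and the dashed line marks equal ratios. C530044C16Rik, Gm32834 and Gm39469 lie at the top right, Pantr1, Gm3764 and Epb41l4aos at the bottom left, and Fzd10os lies apart with 1.71 in Kmt2d+/βgeo and -0.63 in wild type.

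The windows around the RefSeq starts of both strongest risers and of Gm3764 are shown from 250 bases before the start to 50 after it, on the strand of the gene. Capitals mark the CCAAT box, the TATA box (spelled TATAAA), the GC box (spelled GGGCGG) and the letters TTCCNNGAA, a form of the motif of STAT factors, each searched on both strands, with no 2 of the marked matches overlapping. For Gm32834, 1 of 2 RefSeq windows is shown. The RefSeq start of Gm3764 lies 7669 bases from its start in the gene table.
C530044C16Rik (chr6:50775865-50776164, plus strand): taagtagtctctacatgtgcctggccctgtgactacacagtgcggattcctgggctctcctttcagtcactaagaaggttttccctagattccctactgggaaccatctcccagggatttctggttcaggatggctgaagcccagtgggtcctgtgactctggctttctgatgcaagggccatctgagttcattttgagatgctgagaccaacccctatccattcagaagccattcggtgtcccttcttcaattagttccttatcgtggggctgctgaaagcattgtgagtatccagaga
Gm32834 (chr13:51418637-51418936, minus strand): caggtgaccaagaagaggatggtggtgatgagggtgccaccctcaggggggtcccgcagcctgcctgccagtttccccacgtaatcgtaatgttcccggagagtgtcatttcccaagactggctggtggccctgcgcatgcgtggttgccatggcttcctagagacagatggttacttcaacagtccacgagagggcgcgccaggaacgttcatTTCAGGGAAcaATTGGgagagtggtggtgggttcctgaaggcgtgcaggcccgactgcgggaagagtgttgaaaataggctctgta
Gm3764 (chr3:88214232-88214531, plus strand): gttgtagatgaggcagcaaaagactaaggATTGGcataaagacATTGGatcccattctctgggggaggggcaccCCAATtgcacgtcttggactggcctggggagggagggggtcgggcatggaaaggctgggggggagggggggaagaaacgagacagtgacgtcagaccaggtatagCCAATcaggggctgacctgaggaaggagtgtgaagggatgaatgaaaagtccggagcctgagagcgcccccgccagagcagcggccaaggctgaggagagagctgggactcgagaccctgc
The window of Gm3764 held 4 CCAAT matches, that of Gm32834 held 1 CCAAT and 1 TTCCNNGAA match, and that of C530044C16Rik held 0 matches of these motifs. Over 32851 windows of all genes, 37.4% held CCAAT, 13.6% TATAAA, 35.7% GGGCGG and 4.81% TTCCNNGAA.

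Many lncRNA genes start beside a protein-coding gene, and the pair was followed side by side. The nearest coding start of the gene table lay within 1 kb for 32 of 103 members, on the opposite strand for 31 of these. No coding start of that table lay within 100 kb of 31 members. Coding genes absent from the table are left out of both counts, so these do not describe the genome. In GENCODE M21, for example, Fzd10 starts 151 bases from Fzd10os and Dynll1 starts 121 bases from Gm13830. Some pairs are given with both courses. 4632427E13Rik, which starts 135 bases from Rab30, stayed between 0.923 and 1.27, with day 8 ratios of -0.11 and -0.39. Rab30, which encodes a small GTPase of the Golgi, rose from 0.0528 and 0.0249 to 0.243 and 0.231, with ratios of 2.20 and 3.21. B230354K17Rik had ratios of 0.50 and -0.26, and Cdc5l, a splicing factor gene that overlaps it on the opposite strand, -1.83 and -1.13. 4930570G19Rik and Negr1, a neural adhesion gene, had ratios of 1.74 and 1.25 in Kmt2d+/βgeo, where both rose, and of 1.87 and 0.80 in wild type. 5031425E22Rik rose 2.46-fold and 2.16-fold, while Kmt2e, which is named in the same gene family as Kmt2d and starts 172 bases away, had log2 ratios of 0.27 and -0.25. Both genes of a pair within 1 kb passed 2-fold in 1 of 12 pairs compared in Kmt2d+/βgeo and in 0 of 10 in wild type. The member alone or with its neighbour did so in 6 and 4 of these pairs and the neighbour in 6 and 3, where 32.9% and 27.3% of all genes did so in either direction, and no share over other gene pairs was taken. Since 22 members overlap a coding gene in GENCODE M21, 18 of them on the opposite strand, reads of overlapping pairs are uncertain.

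The labels were compared on each day as the log2 ratio of Kmt2d+/βgeo over wild type. On day 0, 26 members were compared, with a median of -0.20 against -0.04 over all genes. None was past 2-fold higher and 1 was past 2-fold lower, Gm49980, where 0.674% and 0.871% of all genes were. On day 2, 36 were compared with a median of -0.19 against 0.00 over all genes, 2 were higher and 1 lower (1.68% and 1.15% of all genes). Of the marker genes on day 2, Vim was at 81.8 against 50.5 and Apoe at 209.7 against 149.8, while the other 4 astrocyte markers summed to 4.63 against 8.35. Among the other progenitor markers, Slc1a3 was at 14.1 against 23.3 and Sox9 at 1.98 against 2.93. Fabp7 was at 43.5 against 41.2, Hopx at 1.59 against 1.66 and Pax6 at 0.354 against 0.373. On day 0, Apoe was at 14.1 against 5.88 and the other 4 astrocyte markers at 2.11 against 2.31. On day 4, 33 were compared and 0 were past 2-fold, as were 0% of all genes in either direction. On day 8, 39 were compared with a median of 0.26 against 0.01, 5 were higher and 1 lower (2.06% and 2.81%). Over all 103 members with no minimum, 43 had a ratio above 0 on day 0, or 41.7%, against 45.7% of all genes, 42 on day 2, or 40.8%, against 50.1%, and 75 on day 8, or 72.8%, against 51.7%. The Kmt2d+/βgeo day 8 library is the shallowest, with a median of 7926 total UMIs against 14243. Its Apoe level was 94.7 against 230.0 in wild type, while the other 4 astrocyte markers summed to 5.81 against 7.56. Further markers of day 8 went either way. Vim was at 43.7 against 86.6 and Top2a at 0.0550 against 0.122, while Hopx was at 6.16 against 1.82 and Rbfox3 at 0.113 against 0.0472. Thinned to 3000 UMIs per cell, the median of the members compared was 0.16. Thinning left out 757 of 2965 Kmt2d+/βgeo cells and 4 of 3212 wild type cells of day 8, so it changed the cells as well as the depth. As a difference of mean log2 values, a scale that shrinks changes of low genes, the median was -0.01. The floor of UMIs in every library, described above, is also a higher level in this shallowest library. A low gene that was lower in Kmt2d+/βgeo on day 8 may thus be absent from the shares above 0. No share was taken over genes of like level, so the shares of day 8 do not tell members from other low genes. The part of this floor in the label ratios was not tested. The part of depth and of these markers in the label ratios of any day was not tested further.

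E330013P04Rik (chr19:60144675-60162591, plus strand) had the same sign on days 0, 2 and 8 and was past 2-fold on at least 2 of them at the minimum of 0.1, as were 1.15% of all genes. With no minimum, 3 members were (1.76% of all genes), the others being Gm30373 and AU020206. Its Kmt2d+/βgeo level was the higher on day 0 (0.0727 against 0.0408, not compared), on day 2 (0.327 against 0.117) and on day 8 (0.114 against 0.0520). The ratio was 1.48 (1.34 to 1.66) on day 2 and 1.14 (0.78 to 1.48) on day 8. On day 4 it was 0.0654 against 0.0793. It was highest on day 2 in both labels, with ratios over day 0 of 2.17 and 1.52.

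Gm49980 (chr18:30267249-30272133, plus strand), which lies 5498 bases upstream of Pik3c3 by their starts, changed side between days. It stood at 0.0910, 0.156, 0.0188 and 0.0712 in Kmt2d+/βgeo and at 0.384, 0.0515, 0.0164 and 0.0120 in wild type, so that the wild type day 0 library was far above the other 7. The label ratio was -2.08 (-2.23 to -1.96) on day 0 and 1.60 on day 2. The ratio of summed UMIs on day 2 was lower, at 1.38 (1.16 to 1.61). On day 8, under the minimum, the label ratio of Gm49980 was 2.56 (1.69 to 2.87, on 89 and 36 UMIs). In wild type it fell 31.9-fold from day 0 to day 8, a log2 ratio of -4.99 (-5.39 to -4.40, from 2418 and 36 UMIs). Pik3c3, which encodes a lipid kinase of autophagy, was between 0.122 and 0.221 in the 8 libraries.

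Fzd10os had the largest label ratio of the 39 members compared on day 8. In Kmt2d+/βgeo it stood at 0.261, 0.780, 0.130 and 0.852, up on days 2 and 8 and low on day 4. In wild type it stood at 0.301, 0.547, 0.142 and 0.195. The day 8 ratio was 2.13 (2.00 to 2.29), while on day 2 it was 0.51. Fzd10, a receptor gene of WNT signalling that starts 151 bases away in GENCODE M21, was not analysed here. C530044C16Rik was higher in Kmt2d+/βgeo on day 8 with a ratio of 1.21 (1.02 to 1.28) and Gm46430 with 1.25, and AU020206 stood at 0.121 against 0.0527, past 2-fold as well. On day 2, under the minimum, AU020206 stood at 0.0667 against 0.0230, with a ratio of 1.54 (1.16 to 1.85), and on day 0 its ratio was 0.21. Gm32834 was lower, at 0.359 against 0.877, with a ratio of -1.29 (-1.36 to -1.08). On day 2, Gm30373 was lower in Kmt2d+/βgeo, at 0.0421 against 0.101, with a ratio of -1.26 (-1.56 to -1.02). Under the minimum it was lower too on day 0, at 0.00934 against 0.0320 (-1.78, from -2.22 to -1.31), and on day 8, at 0.0170 against 0.0446 (-1.39, from -2.21 to -0.82, on 22 and 120 UMIs). It was the 1 member of 103 past 2-fold with 1 sign on all of these days, as were 0.602% of all genes.

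**Figure D4:**
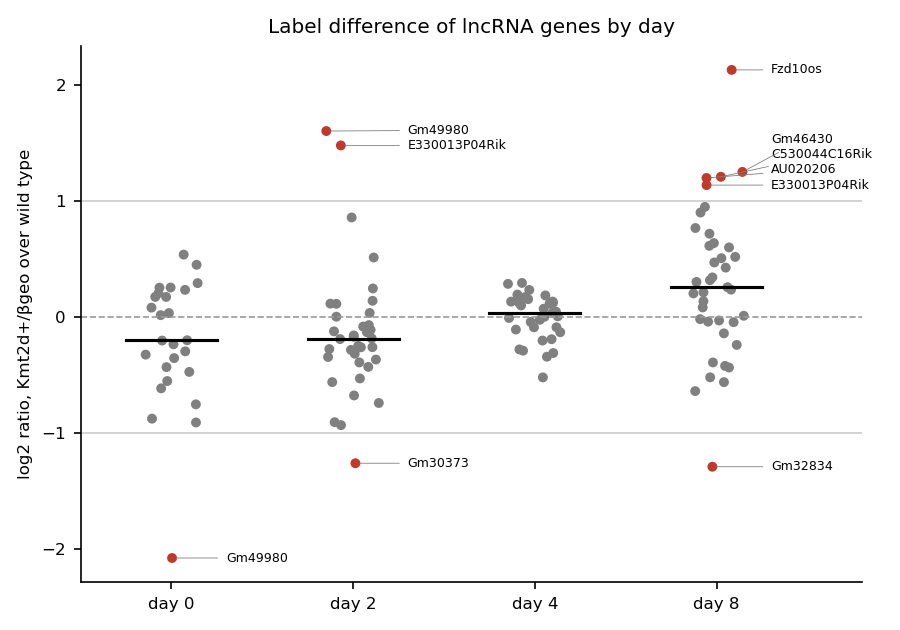
Log2 ratio of mean levels, Kmt2d+/βgeo over wild type (y axis), on each day (x axis) for the lncRNA genes compared on that day. Each point is 1 gene, red and named where past 2-fold, the black bar is the median, and sideways spread within a day has no meaning. Fzd10os stands highest on day 8 and Gm49980 lowest on day 0.

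Cells were then split within each library, after thinning to 3000 UMIs, to see which lncRNAs went with neuronal or dividing cells. A Map2 or Rbfox3 UMI was found in 57.1% to 69.0% of cells and so marks no cell type here, and free RNA was not measured. For the 36 members with at least 50 thinned UMIs in every library, the median over 8 libraries of the log2 ratio of cells with over cells without such a UMI lay between -0.18 and 0.28. In all 8 libraries, 0 of 36 members had 1 sign, against 5.92% of the 7485 genes past the same floor. Those genes were not matched to the members by level, so the contrast decides nothing about lncRNAs. The highest medians were those of E330013P04Rik (0.28, from -0.28 to 1.68 over the libraries), 5430416N02Rik (0.16, from -0.56 to 1.22) and A530017D24Rik (0.15, from -0.38 to 0.77). The ratios of each of these spanned 0.

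Top2a encodes a topoisomerase of dividing cells, and a UMI of it was found in 37.9% of Kmt2d+/βgeo and 34.5% of wild type cells on day 0. Of 48 members with at least 50 thinned UMIs in both day 0 libraries, 26 were lower in Top2a cells in both libraries and 7 were higher in both, or 54.2% and 14.6%, against 41.4% and 33.8% of 8223 genes. The interval lay below 0 in both libraries for 4 of them, or 8.33%, against 9.81% of these genes. A230057D06Rik had a ratio of -1.42 (-2.02 to -0.85) in Kmt2d+/βgeo and -0.86 (-1.24 to -0.50) in wild type. Snhg20 had -0.28 and -0.26, Epb41l4aos -0.26 and -0.27, and Gm3764 -0.24 and -0.23. For 0 members did the interval lie above 0 in both libraries, against 12.2% of these genes, the highest pair of ratios being 0.85 and 0.27 for AU020206. Whether an interval leaves out 0 depends on the number of UMIs. No share was taken over genes of like UMI number, so these shares of intervals do not tell members from other genes.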

How the data were processed

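The data are 3′ tags of polyadenylated RNA from single cells in droplets, in 8 libraries, 1 per label and day. The authors' processing, per the labels and the study's methods, used alevin (Salmon 1.3.0) on GRCm38 and Seurat 3.2.2, and spliced molecules were taken as expression. The authors removed cells of low quality and doublets and genes seen in few cells. For the strand used in counting, the sources used here give nothing. The authors deposited log2 values of counts scaled by library size for 9140 genes and 30408 cells, and a cell table with the total UMIs of each cell as an estimated count.

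Each log2 value was turned back into a normalised count, and these summed to 8707.14 in every cell. In each cell 1 UMI was set to the commonest nonzero value, and 86.8% of nonzero values were then within 0.01 of a whole UMI. Estimated counts were rounded for summed UMIs and for thinning, which drew every cell down to 3000 UMIs without the 784 cells that held fewer. Of these cells, 757 were in the Kmt2d+/βgeo day 8 library. Spliced counting leaves intronic signal out, so an unspliced lncRNA would be counted in part only.

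Genes were compared where the mean normalised count was at least 0.1 in either library, and a gene was called past 2-fold where its log2 ratio was 1 or more in size. With 1 library per group there was no test. The 95% intervals are exact conditional intervals of ratios of summed UMIs and cover counting error only. They need not be centred on the ratio of mean levels printed before them. The scripts were tested on simulated data. Members, gene lists and comparisons were chosen with earlier results of these data known.

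The naming rule took the members of a short list of lncRNAs and the 5 of highest level. The list included Gm49980 and was written with earlier results of these data known. Taken too were up to 5 per direction past 2-fold between day 0 and day 8 in both labels. So were up to 5 per direction with 1 sign of the label ratio on days 0, 2 and 8, past 2-fold on at least 2. Last came the 3 of highest median ratio in cells with a Map2 or Rbfox3 UMI. The other genes named were chosen after their values were seen. Alternatives changed the minimum, the fold, the scale, the centring and the depth. Positions, exons and strands came from GENCODE M21 on GRCm38, where all 103 members had the coordinates of the deposited gene table. Sequences are from RefSeq (GRCm38.p6). The analysis used Python 3.11.15, NumPy 2.4.6, SciPy 1.17.1, pandas 2.3.3 and matplotlib 3.10.9.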

Additional observations from a re-analysis of the deposited data

Results flagged for a closer look

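Gm49980 was called past 2-fold in opposite directions on different days. Its log2 ratio of Kmt2d+/βgeo over wild type was -2.08 on day 0 and 1.60 on day 2, with 1 library behind each value. The difference between the days was not tested.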

How the results depend on the processing

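Counts of lncRNA genes past 2-fold depended on the minimum, the fold and the scale. With a minimum of 0.5, the label counts were 0 on day 0, 0 on day 2 and 3 on day 8 (1, 3 and 6 in the report) of 7, 8 and 11 members compared, beside 0.854%, 2.59% and 5.18% of all genes, and with 0.02 they were 2, 7 and 12 of 72, 93 and 101, beside 2.19%, 3.06% and 5.09%. With a 1.5-fold threshold they were 5, 8 and 14, beside 6.46%, 8.08% and 17.8% of all genes. As differences of mean log2 values they were 0, 0 and 0 (0.0281%, 0.136% and 0.396% of all genes). That scale shrinks changes of low genes. A gene under a level of 1 in both libraries cannot pass the threshold on it, so these counts decide nothing about low members. Thinning gave 5 on day 2 (221 of all 7364 genes), 7 on day 8 (344 of 7576) and 1 on day 0 (120 of 7117). Of the genes that rose by day 8, the count of 20 in Kmt2d+/βgeo became 3 of 10, 56 of 100 and 0 of 40 with a minimum of 0.5, with 0.02 and as mean log2 values (35.4%, 33.2% and 3.52% of all genes past the threshold in either direction), and that of 12 in wild type became 2 of 9, 37 of 95 and 0 of 35 (29.3%, 28.0% and 2.91%), with 19 at 1.5-fold (49.4%). Of those that fell, the 4 in Kmt2d+/βgeo became 2 as mean log2 values, and the 6 in wild type became 3 with a minimum of 0.5 and 2 as mean log2 values. Thinned, the percentage of UMIs on members was 0.174 and 0.182 on day 0 (Kmt2d+/βgeo, wild type), 0.177 in Kmt2d+/βgeo on day 4, and 0.192 and 0.168 on day 8. With Rbfox3 alone, 2 of 36 members had 1 sign in all 8 libraries, or 5.56%, against 2.81% of 7486 genes. Of 244 alternative values of named ratios, 241 kept their sign, 171 lay within the counting interval and 73 moved by more. Dropping the minimum, chosen after seeing the data, raised the members of 1 label sign from 1 to 3. No paired analysis was possible because no groups shared 2 replicate numbers, each label and day having 1 library, and no replicate could be left out. A label effect with day as a block could be fitted over the 8 libraries, taking differences between days as error, but was not.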

Other observations

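RefSeq starts were matched for 68 of 103 lncRNA genes, with 86 windows of 250 bases before to 50 after a start. The median window held 13.5 CpG dinucleotides, against 7 over all windows. CCAAT was found in 45 of these windows, or 52.3%, beside 37.4% of all windows. GGGCGG was found in 45.3%, beside 35.7%, TATAAA in 8.14%, beside 13.6%, and TTCCNNGAA in 4.65%, beside 4.81%. The sets are unlike, as the windows over all genes were not limited to genes of the deposited table. All members were seen in every library, and 32 of 103 start within 1 kb of a coding start. No windows of like genes were taken. A match of letters is a description of the window and not a site in use.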
